A study of Mus musculus with 6 samples.

Results

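Masp1 and Cpne4 are 2 of the 19505 genes measured on single-colour Affymetrix arrays in B16F10, a mouse melanoma line that makes pigment. They were looked up by gene symbol in the platform annotation, where each had 1 transcript cluster, the set of array probes that reports a gene. They were picked because both arrays at 40 µM lay below both control arrays, so their difference at 40 µM is a description and has no test. For 48 h the cells received medium only (control, 2 arrays) or a compound that is labelled as SQ-diEG and as di-sq, at 2.5 µM (2 arrays) or 40 µM (2 arrays). The controls are labelled as medium, and no vehicle is named. All 3 groups are of the same cell line, with no other allele or agent in the labels, and the labels do not state if the arrays within a group are of separate cultures. The values are the authors' log2 expression values, and the p-values given for other genes measure only the spread between these arrays.

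Masp1 encodes serine proteases of the lectin pathway of complement, the arm of innate immunity in which mannose-binding lectin, ficolins and collectins recognise sugars on a surface. Splicing of the gene gives MASP-1, which starts the pathway by activating MASP-2, MASP-3, which matures factor D of the alternative pathway, and a short product with no protease domain. In the body the liver is a main source of these plasma proteins. Cpne4 encodes copine 4, a member of a family of cytosolic proteins that carry a pair of C2 domains, which bind phospholipid membranes when calcium rises, and a von Willebrand factor A domain that binds other proteins. Copine 4 is best known from the nervous system.

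Background was set on each array at the 95th percentile of 5222 negative control features, which lay between 9.80 and 10.06 on the log2 scale. Of all genes, 78.7% had a mean over the 6 arrays below its average of 9.94. The medians of the negative controls lay between 5.98 and 6.10. Replicate 1 at 2.5 µM and replicate 1 at 40 µM had the lowest hybridisation controls, with means of 10.43 and 10.30 against 10.82 to 11.15 on the other 4 arrays. Their poly-A controls were also lowest, at 5.65 and 5.63 against 6.35 to 7.42. Their gene values were spread more widely, with interquartile ranges of 5.20 and 5.43 against 4.90 to 4.94. More of their genes lay above background, 4362 and 4566 against 3939 to 4013. They are called the low arrays, and for several genes below the difference is also given without them. All 6 pigment cell markers (Tyr, Tyrp1, Dct, Pmel, Mlana and Mitf) lay above background, from 14.43 to 19.21 over all arrays. The markers of other cell types that are known for these genes were low. All 5 hepatocyte markers lay below background, and so did 4 of 4 measured leukocyte markers and 4 of 5 neuron markers, the exception being the tubulin gene Tubb3.

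Masp1 was well expressed in control cells and lower at 40 µM. On the deposited log2 scale it was at 14.39 and 14.50 in the control arrays, at 14.34 and 14.30 at 2.5 µM, and at 12.85 and 13.50 at 40 µM. The arrays at 40 µM lay below the other 4, while the arrays at 2.5 µM lay close to control. The group means were 14.45 ± 0.08 in control, 14.32 ± 0.03 at 2.5 µM and 13.18 ± 0.46 at 40 µM (SD, n = 2). The difference of 40 µM from control was -1.27 with a standard error of 0.23, which is 2.41-fold lower on this scale.

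The arrays at 40 µM disagreed on the size of the Masp1 difference. Relative to the control mean, Masp1 was at -1.59 on replicate 1 and at -0.95 on replicate 2, and the replicates were 0.65 apart. The larger difference was on the array with low hybridisation controls. Set against the other low array, at 2.5 µM, Masp1 differed by -1.49 on 40 µM replicate 1, and replicate 2 at 40 µM differed by -0.80 from replicate 2 at 2.5 µM. Masp1 was lower at 40 µM within the low arrays and within the others.

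Masp1 stayed above background on all 6 arrays. It exceeded the 95th percentile of the negative controls by 3.05 and 3.47 at 40 µM, against 4.41 and 4.56 in control. On the stricter 99th percentile the groups differed. At 40 µM Masp1 lay below it, at 12.85 against a percentile of 13.28 on replicate 1 and at 13.50 against 14.09 on replicate 2, whereas both arrays of control and of 2.5 µM lay above theirs. Among all genes it was higher than 93.6% and 96.1% at 40 µM, against 97.7% and 97.8% in control.

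**Figure D1:**
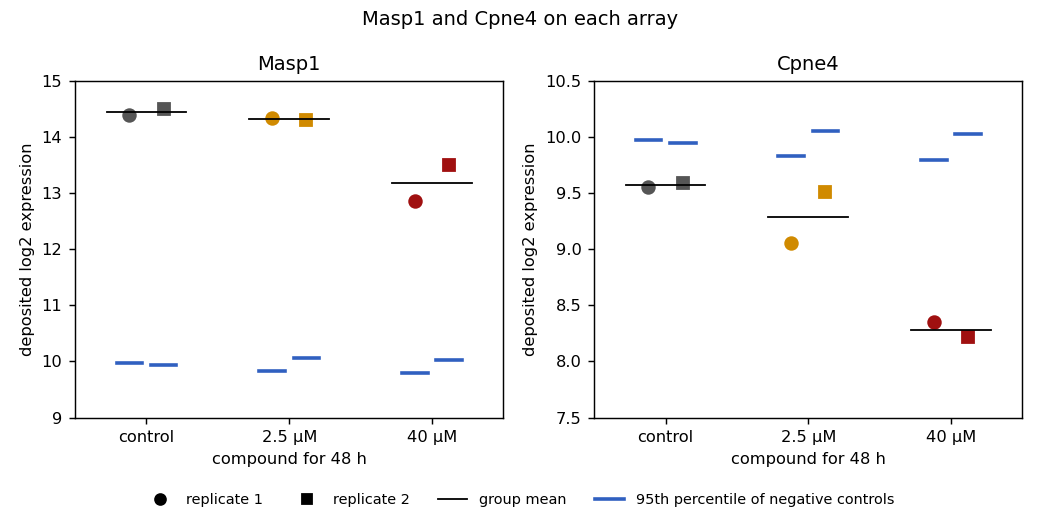
Deposited log2 expression (vertical axis) of Masp1 (left) and Cpne4 (right) on each array, by group; circles are replicate 1, squares replicate 2, black lines group means and blue lines the 95th percentile of the negative controls on that array. Masp1 lies above the blue line on all arrays and Cpne4 below it on all, and in both panels the arrays at 40 µM are the lowest.

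Cpne4 was lower by a like amount, with closer replicates but a level below background. It was at 9.55 and 9.59 in the control arrays, at 9.06 and 9.51 at 2.5 µM, and at 8.35 and 8.22 at 40 µM. Again the arrays at 40 µM lay below the other 4. The group means were 9.57 ± 0.03 in control, 9.29 ± 0.32 at 2.5 µM and 8.28 ± 0.09 at 40 µM (SD, n = 2). The difference of 40 µM from control was -1.29 with a standard error of 0.23, or 2.45-fold lower on this scale.

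For Cpne4 the array split ran the other way. Relative to the control mean, Cpne4 was at -1.22 on 40 µM replicate 1 and at -1.36 on replicate 2, which is not a low array. Between the low arrays the difference of 40 µM from 2.5 µM was -0.71, and between the replicates 2 it was -1.30. Cpne4 was below the 95th percentile of the negative controls on all 6 arrays, with a distance to it of -1.45 and -1.81 at 40 µM, against -0.42 and -0.35 in control. It was above their median on all 6, by 2.25 and 2.11 at 40 µM, against 3.53 and 3.60 in control. Of the negative controls, 86.4% and 83.4% lay below Cpne4 at 40 µM, against 93.5% and 93.7% in control.

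At 2.5 µM neither gene was clearly apart from control. Masp1 differed by -0.13 and Cpne4 by -0.29, each with a standard error of 0.23. Both arrays at 2.5 µM lay just below both controls, Masp1 by a gap of 0.05 and Cpne4 by one of 0.04, a position shared by 25.9% of all genes. The control arrays of Masp1 were 0.11 apart, more than that gap, and the arrays of Cpne4 at 2.5 µM were 0.46 apart. For Cpne4 the difference came from replicate 1, a low array, and was -0.0578 without it. For Masp1 it was 0.024 with the array split as a block. For Cpne4 control and 2.5 µM therefore did not differ beyond their spread. For Masp1 the difference of -0.13 compares with SDs of 0.08 in control and 0.03 at 2.5 µM (n = 2). The standard error draws on all 3 groups, including the 40 µM arrays of Masp1, which were 0.65 apart. The step from 2.5 µM down to 40 µM was larger than the distance between replicates, with a gap of 0.80 between the groups for Masp1 and 0.71 for Cpne4. Both 40 µM arrays lay below both 2.5 µM arrays in 16.3% of all genes. Masp1 was 2.21-fold lower and Cpne4 2.01-fold lower at 40 µM than at 2.5 µM. These comparisons share arrays with the one the genes were picked on, and they carry no test.

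The pattern itself was common. Both arrays at 40 µM lay below both controls in 26.3% of the 19505 genes, and below all 4 other arrays in 9.35%. Of all genes 1% had both 40 µM arrays below both controls and were lower by at least 1 on the log2 scale. Among the 4021 genes whose control mean lay above background, the Masp1 difference ranked 4 from the most lowered. Of 289 genes within 0.5 of the control mean of Masp1, it was the one with the lowest difference, where the median was -0.05 and the 5th percentile -0.58. These ranks use the values the genes were picked on and describe them. Cpne4 was not above background, and of 1279 genes within 0.5 of its control mean 1 had a lower difference, and the median was 0.14 and the 5th percentile -0.53. At 40 µM 0% of genes had an adjusted p under 0.05 (limma, Benjamini-Hochberg adjustment, smallest adjusted p = 0.334), while 12% had an unadjusted p under 0.05.

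**Figure D2:**
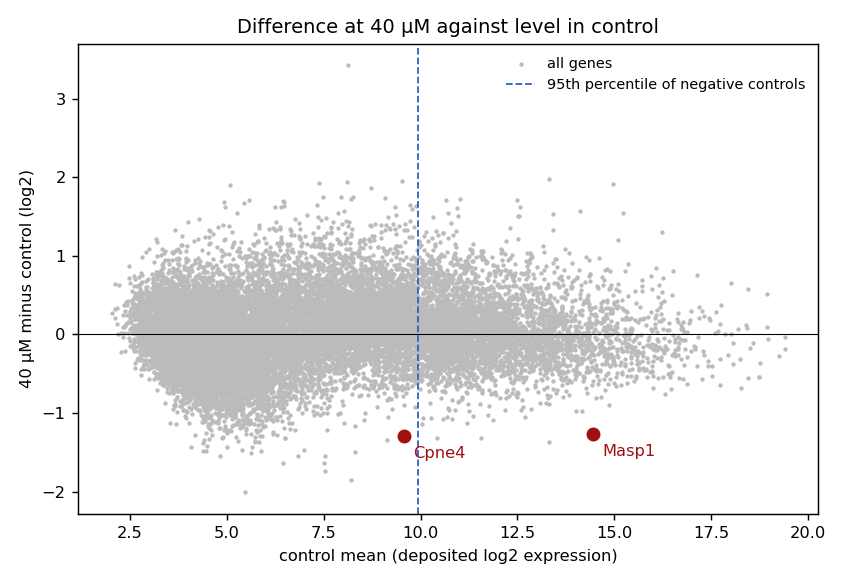
Difference of 40 µM from control (vertical axis, log2) against the control mean (horizontal axis, deposited log2 expression) for all 19505 genes (grey), with Masp1 and Cpne4 in red and the mean 95th percentile of the negative controls as a dashed line. Both red points lie at the lower edge of the cloud at their level, Masp1 well to the right of the background line and Cpne4 just left of it.

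One value per gene cannot separate splice products. RefSeq lists 2 curated transcripts for Masp1, on chromosome 16, and 3 for Cpne4, on chromosome 9, while the platform annotation ties each cluster to 1. MASP-1, MASP-3 and the short product are therefore not told apart in the Masp1 values. The RefSeq table of start windows used here had no entry for Masp1, so the motif search covers Cpne4 only. RefSeq has 2 start windows for Cpne4. The 250 bases before each start are shown because the array value does not say which start it reads. They are from RefSeq on build GRCm38.p6, plus strand, and the genome build behind the arrays is not given in the sources used here. Capitals mark matches, on either strand, to CACGTG or CATGTG, E-box forms that the pigment cell factor MITF can bind, and to GGGCGG, a GC box. The other motifs searched were TGACNNNGC, the core of the antioxidant response element, and TATAAA, neither of which had a match.
Cpne4 upstream window, chr9:104569405-104569654: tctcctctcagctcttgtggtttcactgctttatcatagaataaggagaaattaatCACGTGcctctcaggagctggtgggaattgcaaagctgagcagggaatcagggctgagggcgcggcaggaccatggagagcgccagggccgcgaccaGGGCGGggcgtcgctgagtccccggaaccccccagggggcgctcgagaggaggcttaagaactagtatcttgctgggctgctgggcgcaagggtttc
Cpne4 downstream window, chr9:104587808-104588057: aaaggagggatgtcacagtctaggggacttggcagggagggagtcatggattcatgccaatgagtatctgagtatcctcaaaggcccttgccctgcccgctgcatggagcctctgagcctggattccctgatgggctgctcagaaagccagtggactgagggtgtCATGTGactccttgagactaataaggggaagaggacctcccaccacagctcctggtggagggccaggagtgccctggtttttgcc
The upstream window held 1 CACGTG, 1 GGGCGG and 13 CG dinucleotides, and the downstream window 1 CATGTG and 1 CG dinucleotide. Of 32851 windows of the same length in the RefSeq table, 6.02% held CACGTG, 12.3% CATGTG, 32.7% GGGCGG, 10.2% TGACNNNGC and 12.4% TATAAA. Mitf itself was at 15.10 and 15.51 at 40 µM, against 16.03 and 15.95 in control. In the limma fit it had an unadjusted p of 0.00758 and an adjusted p of 0.349. Of all genes 6.86% were lower at an unadjusted p under 0.05. The Mitf difference of -0.68 was -0.47 without the low array. Whether MITF acts on Cpne4 in these cells was not tested.

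The other genes of the lectin pathway lay below background, and Masp1 was the one above it. Of the 8 genes of this list all were measured, and none of the 7 others had a mean above background, their means lying from 3.55 to 6.68. Mbl2, a mannose-binding lectin that carries the MASP proteases, was at 6.18 and 6.52 at 40 µM, against 7.31 and 7.22 in control, a difference of -0.91 with a standard error of 0.29. It was already at 6.08 and 6.80 at 2.5 µM. Colec11, a collectin of the same pathway, was at 4.18 and 4.39 at 40 µM, against 4.99 and 4.73 in control, below the median of the negative controls throughout. These 2 had an unadjusted p under 0.05 and a lower level, where 6.86% of all genes did, and neither passed over all genes (limma, smallest adjusted p = 0.356). Masp2, the protease that MASP-1 activates, differed by 0.11 with a standard error of 0.29, Mbl1 by 0.31 and the ficolins Fcna and Fcnb by 0.12 and 0.03. Colec10 differed by 0.36. The 7 had a median difference of 0.11, against -0.01 over all genes.

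Further along complement, 50 genes were on the lists and 46 besides Masp1 were measured. Of these, Cr1l alone had a mean above background. It encodes Crry, a membrane regulator of rodents that protects cells from their own complement, and it was at 12.44 and 11.93 at 40 µM, against 11.97 and 12.22 in control, so that the groups overlapped. At 40 µM 2 of the 46 had an unadjusted p under 0.05 and a higher level, C2 and Cd59a, where 5.18% of all genes did. Another 5 had one with a lower level, where 6.86% of all genes did, which were Cfb, A2m and Cd55b besides Mbl2 and Colec11. None passed over all genes (limma, smallest adjusted p = 0.334). Their median difference was -0.08. C2, the protease that the MASP enzymes cleave, was at 9.01 and 8.46 at 40 µM, against 7.81 and 8.03 in control, a difference of 0.82 that was 0.54 without the low array. Cd59a, which blocks the membrane attack complex, was at 8.61 and 7.83 at 40 µM, against 7.30 and 7.34 in control, a difference of 0.89 that was 0.50 without the low array. Cfb, factor B of the alternative pathway, was at 4.02 and 4.30 at 40 µM, against 5.39 and 5.30 in control, below the median of the negative controls on every array. A2m, a broad protease inhibitor, was at 5.19 and 5.68 at 40 µM, against 6.44 and 6.20 in control. Serping1, which encodes the C1 inhibitor that blocks MASP-1, was at 3.86 and 3.51 at 40 µM, against 3.63 and 3.55 in control. None of the 7 terminal complement and 8 receptor genes had an unadjusted p under 0.05 at 40 µM, where 12% of all genes did. The closest was C9, with a difference of -1.05 and a standard error of 0.48. Both 40 µM arrays lay below both controls in 6 of the 8 receptor genes and 2 of the 7 terminal ones. Over all genes 26.3% did. The 8 receptor genes all had means below the median of the negative controls, with a median difference of -0.32. Both lists are short. Of 11 genes that MASP-1 or thrombin is known to act on or that belong to clotting, 1 had an unadjusted p under 0.05. It was the kininogen Kng2, with a difference of -0.68, and the share was near the 12% of all genes. All 11 lay below the median of the negative controls.

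At 2.5 µM the same 46 complement genes gave 2 with a higher level at an unadjusted p under 0.05, C4a and C8a, where 4.24% of all genes did, and 7 with a lower one, where 5.38% did, or 9.62% in either direction. The lower ones were A2m, C9, Cd55b, Cfb, Colec11, Cr2 and Mbl2. None passed over all genes (limma, smallest adjusted p = 0.479), and each had a mean below background. C9, a pore-forming component, was at 3.89 and 5.40 at 2.5 µM, against 6.17 and 5.82 in control, a difference of -1.35 that was -0.60 without the low array. For 40 µM against 2.5 µM, Cd46 and Cr2 were higher, where 2.34% of all genes were, and no gene of the 46 was lower at that p, where 3.28% were, or 5.61% in either direction. These comparisons share control or treated arrays, and each stands on its own values.

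**Figure D3:**
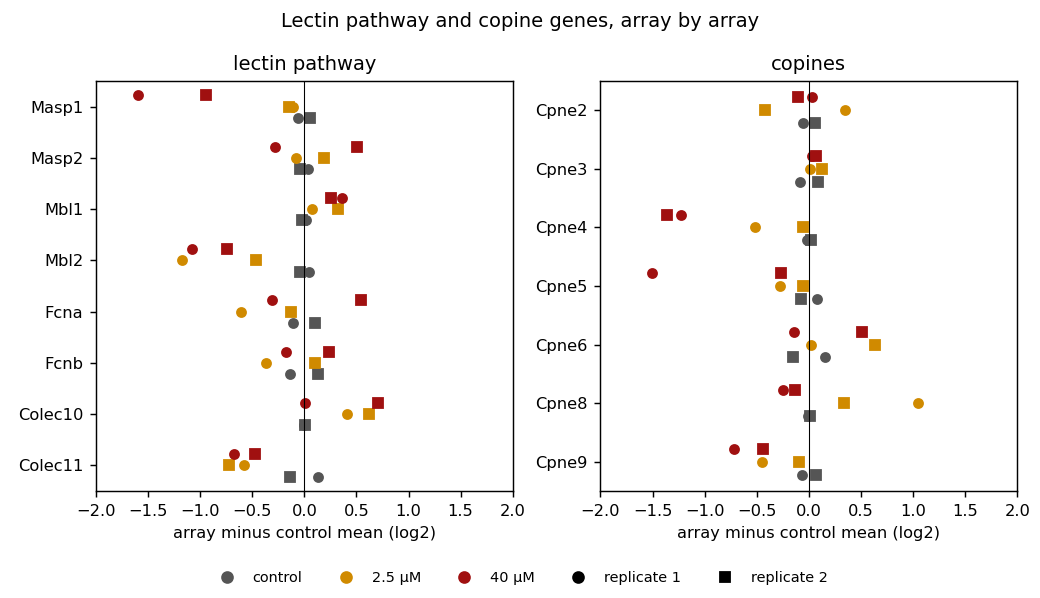
Difference of each array from the control mean (horizontal axis, log2) for the lectin pathway genes (left) and the copines (right); colours are the groups, circles replicate 1 and squares replicate 2. The 40 µM arrays of Masp1 lie at -1.59 and -0.95 and those of Cpne4 at -1.22 and -1.36, to the left of their other arrays.

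Among the copines Cpne4 was one of 7 measured members of 9 on the list, and Cpne3 alone had a mean above background. Cpne3, a widely expressed copine, was at 11.54 and 11.71 in control, at 11.63 and 11.75 at 2.5 µM, and at 11.66 and 11.69 at 40 µM, a difference of 0.05 with a standard error of 0.18 between 40 µM and control. Cpne2 differed by -0.0349 with a standard error of 0.29. Cpne5 was at 4.15 and 5.38 at 40 µM, against 5.73 and 5.58 in control, a difference of -0.89 that was -0.27 without the low array. Cpne9 was at 2.89 and 3.17 at 40 µM, against 3.55 and 3.68 in control, and was the 1 of 6 other copines with an unadjusted p under 0.05 (limma, adjusted p = 0.384), where 12% of all genes had one, 6.86% with a lower level. Cpne8 was higher at 2.5 µM at that p, at 4.15 and 3.45, against 3.10 and 3.11 in control. Of all genes 4.24% were higher at that p, and 9.62% had one in either direction. The Cpne8 difference of 0.69 was 0.34 without the low array. For 40 µM against 2.5 µM Cpne8 was lower at that p, where 3.28% of all genes were, or 5.61% in either direction. That difference of -0.89 was -0.47 without the low arrays. Cpne6 differed by 0.185 between 40 µM and control. Cpne5, Cpne6, Cpne8 and Cpne9 had means below the median of the negative controls. The 6 other copines had a median difference of -0.11 at 40 µM and of 0.01 at 2.5 µM.

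Other proteins that bind calcium and phospholipid gave few calls. Of 36 measured genes of the annexins and of other C2 domain proteins, 7 had a mean above background, which were Syt4, Syt9, Myof, Anxa2, Anxa4, Anxa5 and Anxa6. At 40 µM 2 had an unadjusted p under 0.05, both with a higher level, Anxa2 and Syt15, where 5.18% of all genes did, and no gene a lower one, where 6.86% did. The share with a higher level was near that of all genes. In either direction 5.56% of the 36 had such a p, against 12% of all genes. Neither Anxa2 nor Syt15 passed over all genes (limma, smallest adjusted p = 0.356). Anxa2, which links membranes to actin, was at 10.26 and 10.15 in control, at 11.27 and 10.69 at 2.5 µM, and at 11.46 and 10.79 at 40 µM. In each treated group its higher value was on the low array, and its difference from control of 0.92 at 40 µM and 0.77 at 2.5 µM was 0.59 and 0.49 without the low arrays. Syt4, a synaptotagmin, was at 16.54 and 16.10 at 40 µM, against 16.03 and 16.11 in control, and the groups overlapped. Myof, a ferlin of membrane repair, was at 11.30 and 11.57 at 40 µM, against 11.79 and 11.81 in control, with a difference of -0.36 and a standard error of 0.20, and of -0.23 without the low array. The median difference of the 36 was -0.01.

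Genes next to Masp1 and Cpne4 on their chromosomes were taken in the gene order of RefSeq on GRCm38.p6. Of 12 neighbours, 3 on either side of each gene, none had an unadjusted p under 0.05 at 40 µM, where 12% of all genes did, so that with 12 genes the count says little. Rtp4, a receptor transporter protein whose annotated locus overlaps that of Masp1, was at 4.80 and 4.19 at 40 µM, against 5.05 and 5.27 in control, a difference of -0.67 with a standard error of 0.32. Its level was below the median of the negative controls, and whether probes of either cluster read the other gene was not tested. St6gal1, a sialyltransferase on the other side of Masp1, differed by -0.13 with a standard error of 0.22. Beside Cpne4, the prostatic acid phosphatase gene Acpp differed by -0.08 and Mrpl3, of the mitochondrial ribosome, by 0.45 with a standard error of 0.20. Dnajc13, an endosomal cochaperone and the only one of the 12 with a mean above background, was at 10.34 and 10.52 at 40 µM, against 10.59 and 10.52 in control. At 2.5 µM 1 neighbour had an unadjusted p under 0.05 (limma, adjusted p = 0.479), Ackr4, a scavenging chemokine receptor. It was at 4.33 and 4.32, against 3.51 and 3.52 in control. Of all genes 4.24% were higher at such a p, and 9.62% had one in either direction.

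**Figure D4:**
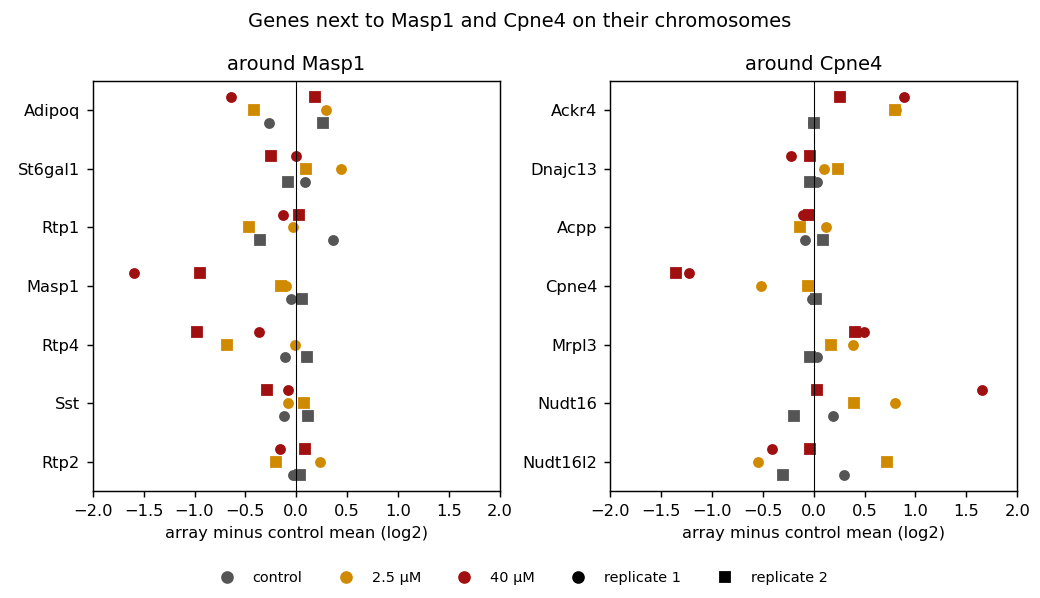
Difference of each array from the control mean (horizontal axis, log2) for Masp1 (left) and Cpne4 (right) and the 3 measured genes on either side of each, in chromosome order from top to bottom; colours are the groups, circles replicate 1 and squares replicate 2. Nudt16 on 40 µM replicate 1 and Rtp4 on 40 µM replicate 2 are the widest departures among the neighbours.

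Several genes followed the same course over the 6 arrays. Likeness was measured as Pearson r over the 6 arrays among 5315 genes with a range of at least 1 on the log2 scale. All of these r rest on the same arrays and are given as a description. Closest to Masp1 were Fam3b (r = 0.993), Eps8 (0.991), Rap2b (0.990), Hoxc9 (0.984) and Dcstamp (0.983). Eps8, an actin-capping protein, was at 12.84 and 13.21 at 40 µM, against 14.01 and 13.99 in control. Rap2b, a small GTPase, was at 12.94 and 13.42 at 40 µM, against 14.15 and 14.16 in control. Both lay well above background, as Masp1 did, and both had the lower value on the low array. Fam3b, Hoxc9 and Dcstamp had means of 4.14, 5.86 and 5.20, below the medians of the negative controls.

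Closest to Cpne4 were Atp13a5 (r = 0.996), Msh5 (0.989), Olfr460 (0.989), Prex2 (0.968) and Nkx2-4 (0.967). Prex2, an activator of the GTPase RAC, had the highest level of these, at 9.25 and 8.76 at 40 µM, against 10.11 and 10.02 in control. Its mean of 9.67 over the 6 arrays lay below background. In control it lay above the background of each array, 9.98 and 9.94. The other 4 had means from 3.77 to 5.39, below the medians of the negative controls. Masp1 and Cpne4 were less alike than these, with r = 0.889 over the 6 arrays, and Cpne4 ranked 104 among the genes most like Masp1 and Masp1 ranked 85 among those most like Cpne4. They differed in which array at 40 µM was lower and in the position of 2.5 µM replicate 1.

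**Figure D5:**
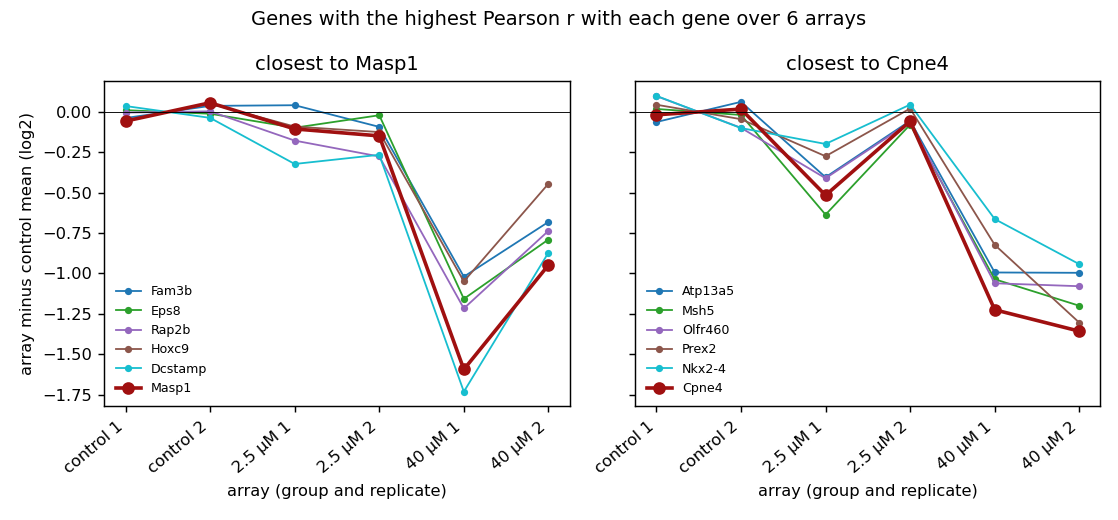
Difference from the control mean (vertical axis, log2) on each array (horizontal axis) for Masp1 (left, red) and Cpne4 (right, red) and the 5 genes with the highest Pearson r with each over the 6 arrays. The Masp1 group is lowest on 40 µM replicate 1, and the Cpne4 group also dips on 2.5 µM replicate 1.

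Markers of the liver, of leukocytes and of pigment cells were lower in sum on both 40 µM arrays than on both controls. Each liver and leukocyte marker had a mean below the median of the negative controls. Of the 5 hepatocyte markers 4 were lower at 40 µM and 1, Serpina1a, was higher. Both 40 µM arrays lay below both controls in 2 of the 5, where 26.3% of all genes did. Alb alone of the 5 had an unadjusted p under 0.05 (limma, adjusted p = 0.365), where 6.86% of all genes did with a lower level. The summed log2 level of the 5 hepatocyte markers lay between 22.04 and 23.54 on the arrays at 40 µM, against 24.19 and 24.22 on the control arrays. That of the 4 leukocyte markers lay between 15.40 and 16.43, against 17.54 and 18.04. The lower hepatocyte sum at 40 µM was on the low array, and the lower leukocyte sum was on replicate 2. At 2.5 µM the hepatocyte sum lay between 23.93 and 23.96 and the leukocyte sum between 16.15 and 17.67. Each of these markers was below background in every group, with single values from 2.90 to 5.85. The 5 neuron markers summed to between 31.46 and 32.74 at 40 µM, against 32.30 and 32.77 in control. The 6 pigment cell markers summed to between 100.77 and 101.36 at 40 µM, against 101.50 and 101.58 in control. Of these 6, 3 were higher at 40 µM and 3 were lower.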

How the data were processed

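The deposited table holds log2 expression values made by the authors. Per the submitters' processing notes the tools were Expression Console, with RMA, and Transcriptome Analysis Console, and no version is given. RMA as usually run subtracts background, forces the arrays to a shared distribution and sums up a cluster's probes. The deposited gene values still differed in spread between arrays, with an interquartile range from 4.90 to 5.43. Values reached 19.88, above the 16 of a plain scanner scale, so an unstated step affects the scale, and folds are on the deposited scale. Groups came from the treatment labels. Some description fields name another treatment and were not followed.

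Of 22206 transcript clusters 19572 had 1 gene symbol, and the cluster with the highest mean represented each of 19505 genes, with no filter. All 6 arrays were fitted in limma 3.58.1 (R 4.3.3) with group means and a variance prior that followed the level, with two-sided tests. P-values were adjusted by the method of Benjamini and Hochberg over all genes, with a threshold of 0.05. The fit was tested on simulated data with known changes and independent noise on each array. That checks the code and does not cover the split between the low arrays and the others. There is no read depth, and precision is limited by the array number. The members, gene lists and alternatives were chosen with earlier results of these data known. Named were the members, all lectin pathway and copine genes, list genes with an unadjusted p under 0.05 or among the 3 smallest of their list (not all are printed), the 5 genes most like each member and 3 neighbours on either side. Of 131 listed genes 119 were measured. Alternatives were another normalization or centring, a level filter, blocks, array weights, another prior, other clusters and arrays left out.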

Additional observations from a re-analysis of the deposited data

How the results depend on the processing

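The lower level of both genes at 40 µM kept its direction in all alternatives run. With 1 array left out at a time, the difference of 40 µM from control ranged from -1.59 to -0.95 for Masp1 and from -1.36 to -1.22 for Cpne4, that of 2.5 µM from control from -0.18 to -0.07 and from -0.52 to -0.0578, and that of 40 µM from 2.5 µM from -1.47 to -0.82 and from -1.23 to -0.78. Without both low arrays, Masp1 differed by -0.95 for 40 µM against control and -0.80 for 40 µM against 2.5 µM, and Cpne4 by -0.0578 for 2.5 µM against control and -1.30 for 40 µM against 2.5 µM. With the array split as a block, Masp1 turned to 0.024 for 2.5 µM against control. The number of genes past 0.05 was 0 in all 3 comparisons (limma, with 2349, 1877 and 1095 genes at an unadjusted p under 0.05 for 40 µM against control, 2.5 µM against control and 40 µM against 2.5 µM). Without both low arrays it was 3749, 3991 and 2965, with an error from the control arrays alone. With the array split as a block it was 1 for 40 µM against 2.5 µM. With 1 array left out it ranged from 0 to 2235 for 40 µM against control, the highest without 40 µM replicate 2, where the single 40 µM array takes its spread from the other groups, and it was 0 in the other 2 comparisons. The cause was not tested. Both 40 µM arrays lay below both controls in 5121 genes, or 26.3% of the 19505. With genes at or above background only the count was 954, but that leaves out the 78.7% of genes with a lower mean. The counts of 5121 and 954 are therefore not of the same number of genes. With fewer arrays to order, the count was 8401 without both low arrays and 5121 to 9199 with 1 array left out. With replicate number as a block, 0 genes passed in each comparison and the differences of both genes were as in the fit without it. Deviations of same-numbered arrays correlated at -0.00452 for control with 2.5 µM and at -0.0121 for control with 40 µM. For 2.5 µM with 40 µM they correlated at 0.386, and the replicates 1 of these groups are the low arrays. What the 0.386 reflects was not tested, and the numbers were not taken to pair the arrays. By Spearman rho, 2 of the 5 genes most like Masp1 and 0 of those most like Cpne4 were among the 5 highest, with many ties over 6 arrays. Against the median of the negative controls in place of their 95th percentile, Cpne4 was above background on 6 arrays in place of 0. The 13 list genes with an unadjusted p under 0.05 at 40 µM changed direction under none of the alternatives run, and in 14 of their values an adjusted p passed 0.05, 9 without both low arrays and 5 without 40 µM replicate 2, settings that leave 1 array at 40 µM, and in none of the others.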
